A study of Rattus norvegicus with 11 samples.

Results

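Sodium, calcium and HCN channel genes code for the pore-forming and accessory subunits of the voltage-gated channels that set the excitability of neurons. On the array used here they were taken as every non-control probe whose gene name begins with Scn, Cacn or Hcn followed by a subunit letter or digit, with or without the suffix _predicted. The rule gave 62 probes of 43 genes, out of 41012 non-control probes with 35561 different names. Of these, 46 probes of 34 genes had signal well above background on all 11 arrays and were tested, among 25555 tested probes in all. The epithelial sodium channel genes Scnn1a, Scnn1b and Scnn1g and the splicing gene Scnm1_predicted share the first letters and were not members.

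The study compared the medial prefrontal cortex of 6 rats that had self-administered heroin with that of 5 yoked rats, which were treated alike and received a saline infusion whenever a heroin rat earned its drug. All were male Rattus norvegicus aged 4 months and were killed after 14 days of abstinence that ended with a return to the chamber, where no heroin was given. Each rat was measured on 1 single-colour array, and groups and replicate numbers are those of the sample records, which number the heroin rats 1 to 6 and the saline rats 2 to 6. The tissue was a block of frontal cortex medial to the forceps minor, so every value is a mean over all its cells, and fewer cells of a type cannot be told apart from less RNA per cell.

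Voltage-gated sodium channels carry the rising phase of the action potential: an alpha subunit forms the whole pore, and beta subunits attach to it and adjust its gating and placement. Voltage-gated calcium channels turn depolarization into calcium entry. Their alpha1 subunit forms the pore and names the type (L, N, P/Q, R or T), their beta and alpha2delta subunits bring it to the membrane, and most brain gamma subunits serve as partners of AMPA receptors. HCN channels open on hyperpolarization, pass a mixed cation current and are opened further by cyclic AMP; in the cortex they are known from the dendrites of pyramidal neurons.

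Each value comes from 1 probe of 60 bases, and 8 of the genes had several tested probes, so the sequences matter for what was measured. The letters below are given for probes to which a result in the text returns and which keep an open reading frame on the sense strand. They come from the array's own annotation, which places them on rat build rn3. The first pair is Cacna1i, the pore of a T-type calcium channel, at chr7:118709842-118710877 and chr7:118709818-118710853 on the plus strand. Both probes cross a gap in the genome and share 36 bases, marked in capitals, the only overlap of 12 bases or more among the 62 probes.
Cacna1i A_44_P405083: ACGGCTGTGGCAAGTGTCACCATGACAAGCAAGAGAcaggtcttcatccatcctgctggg
Cacna1i A_44_P405084: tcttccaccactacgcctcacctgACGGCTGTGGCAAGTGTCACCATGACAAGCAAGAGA

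The next 3 belong to Cacna1e, the pore of the R-type calcium channel, and are shown because they sit far apart in the gene. On the minus strand of chromosome 13 they lie at chr13:69697907-69697966, chr13:69466895-69466954 and chr13:69381412-69381471, in the order of transcription. Capitals mark a stop codon at the end of the last one.
Cacna1e A_44_P545717: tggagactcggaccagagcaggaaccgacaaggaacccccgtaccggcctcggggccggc
Cacna1e A_44_P236697: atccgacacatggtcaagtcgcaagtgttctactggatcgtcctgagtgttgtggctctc
Cacna1e A_44_P240646: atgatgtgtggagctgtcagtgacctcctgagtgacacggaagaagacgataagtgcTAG

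The last 2 are the Hcn3 probe with the widest interval and the Cacna2d2 probe that was above background in the saline rats more often than in the heroin rats. They lie at chr2:181180277-181180336 (minus strand) and chr8:112794170-112794229 (plus strand).
Hcn3 A_44_P107352: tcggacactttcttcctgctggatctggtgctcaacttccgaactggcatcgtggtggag
Cacna2d2 A_44_P217286: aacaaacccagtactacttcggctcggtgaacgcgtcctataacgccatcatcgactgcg

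No channel probe differed between heroin and yoked saline rats by the thresholds of the study's methods, an unadjusted p under 0.02 with a change of at least 1.4-fold. The count was 0 of 46, against 694 of 25555 probes, or 2.72%, over the whole array. The largest difference upward was 1.32-fold, in Cacna1c, the pore of an L-type calcium channel, and the largest downward was 1.35-fold, in Scn11a, a sodium channel known from sensory neurons. The 4 probes with an unadjusted p under 0.02 (8.7% of the 46, where the whole array had 7.27%) belonged to the calcium channel genes Cacnb4, Cacna1c and Cacna1h and to the sodium channel beta subunit Scn3b, each with a higher mean in heroin rats. At an unadjusted p under 0.05, 6 channel probes were higher (13%, against 15.7% of all tested probes) and 0 were lower (against 2.83%). The smallest adjusted p of a channel probe was 0.263 (limma, Benjamini-Hochberg over all tested probes), and over the whole array 0% of the probes passed an adjusted p of 0.05.

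The scaling of the arrays bears on all these directions. Signals are given as relative signals, the background-corrected signal divided by the 50th percentile of its array, and changes as the difference in mean log2 relative signal, heroin minus saline. On this scale the median change of all tested probes was 0.18 and that of the 46 channel probes was 0.14, a difference of -0.04. Under quantile normalization the medians were 0.01 and -0.01. Thus 34 channel probes had a higher mean in heroin rats and 12 a lower one, where 78.7% of all tested probes were higher, and after quantile normalization the split was 21 and 25. The changes given are those under 50th percentile scaling, and the value under quantile normalization is added for most genes described.

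**Figure D1:**
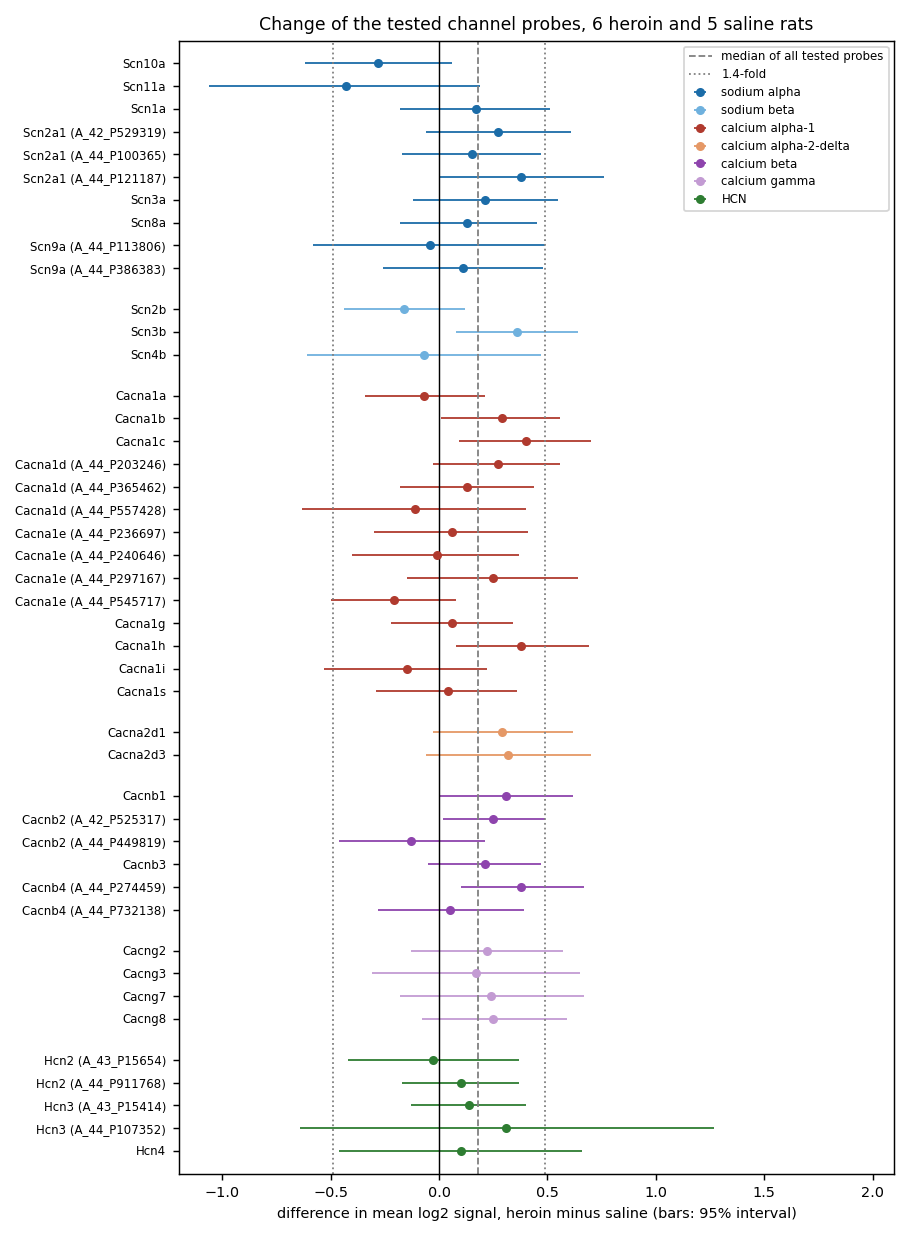
Change of 44 of the 46 tested channel probes, as the difference in mean log2 relative signal (heroin minus saline, horizontal axis) with its 95% interval, 1 row per probe, coloured by subunit family. The dashed line is the median of all tested probes at 0.18 and the dotted lines are changes of 1.4-fold either way. Points run from -0.43 (Scn11a) to 0.40 (Cacna1c), inside the dotted lines, and the Hcn3 probe A_44_P107352 has the widest interval.

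The alpha subunits of sodium channels were represented by 14 probes of 10 genes, of which 10 probes of 7 genes were tested. Their median change was 0.14 and none had an unadjusted p under 0.05. Scn1a, Scn2a1, Scn3a and Scn8a are the alpha subunits of the adult and developing brain. Scn1a, the main sodium channel of fast-spiking interneurons, had relative signals of 11.3 to 16.9 (median 13.5) in heroin rats and of 8.0, 13.8, 13.8, 14.0 and 12.6 in saline rats. Saline 2 stood below the others, the groups overlapped, and the change was 0.17 (SE 0.16, exact permutation p = 0.398), or -0.07 under quantile normalization. Scn2a1, the alpha subunit of pyramidal axons and unmyelinated fibers, had 3 tested probes that were all higher in heroin rats, at 0.15 to 0.38, where quantile normalization gave -0.10 to 0.15. Its brightest probe read 109 to 124 (median 118) in 5 heroin rats and 86.0, 83.0, 130 and 94.3 in 4 saline rats, since the spots of heroin 3 and saline 4 had been marked as outlying and were left out. Saline 5 was above all these heroin rats and the other saline rats were below them. The change was 0.27 (SE 0.16, exact permutation p = 0.111 over the 126 divisions of 9 rats), or -0.01 under quantile normalization.

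Scn3a, most abundant before and around birth, ran from 15.8 to 23.7 in heroin rats and from 13.6 to 21.1 in saline rats, with a change of 0.21 (SE 0.16, exact permutation p = 0.201; -0.03 under quantile normalization). Scn8a, which drives firing at the axon initial segment and nodes of Ranvier, ran from 9.23 to 15.7 and from 10.6 to 13.4, and its 95% interval of -0.18 to 0.45 lay within 1.4-fold either way (change 0.13, or -0.10 under quantile normalization). For Scn9a, the sodium channel of pain fibers and the hypothalamus, the tested probes had changes of -0.04 and 0.11, or -0.17 and 0.17 under quantile normalization.

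Scn10a and Scn11a are the tetrodotoxin-resistant sodium channels of dorsal root ganglion neurons. Their probes gave the lowest changes among the tested channel probes under 50th percentile scaling. Under quantile normalization the changes were -0.20 for Scn10a and -0.34 for Scn11a, and Cacna1e A_44_P545717 (-0.33) and Scn4b (-0.32) were also below Scn10a. Scn10a read 0.528 to 0.807 (median 0.573) in heroin rats and 0.783, 0.778, 0.506, 0.859 and 0.780 in saline rats. Saline 4 was the lowest of all 11 rats, heroin 5 lay among the other saline rats and the other 5 heroin rats below them, giving a change of -0.28 (SE 0.16, exact permutation p = 0.113). Scn11a read 0.357 to 0.746 (median 0.494) in heroin rats and 0.532, 0.405, 1.15, 0.528 and 1.26 in saline rats. Saline 4 and saline 6 were above every heroin rat and the other 3 saline rats lay inside the heroin range, so that the change of -0.43 had an SE of 0.29 (exact permutation p = 0.258). Of the sensory neuron markers on the array, Trpv1 was above background on 0 of the 11 arrays and Pou4f1 on 10, while Calca, which other neurons also make, was above background on all 11.

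Several sodium channel genes lie close together in the rat genome. The probes of Scn10a and Scn11a lie within 146 kb of chromosome 8 (chr8:124598181-124744368). Scn3a, Scn2a1, Scn1a, Scn9a and Scn7a share 1140 kb of chromosome 3 (chr3:47392644-48530115), where the 7 tested probes ran from -0.04 to 0.38.

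The 4 genes of the sodium channel beta subunits were all tested, and they spread from -0.16 to 0.36. Scn3b, which attaches without a covalent bond, had the lowest exact permutation p of its family. It read 319 to 478 (median 348) in heroin rats and 282, 255, 288, 327 and 261 in saline rats. Saline 5, at 327, was the only saline rat at or above the lowest heroin rat, and heroin 6 stood above all others. The change was 0.36 (SE 0.13, 1.28-fold, limma p = 0.0152, adjusted p = 0.263), the exact two-sided permutation p over the 462 divisions of the 11 rats was 0.00649, and under quantile normalization the change was 0.10 (limma p = 0.317). Scn2b, which is bound to the alpha subunit by a disulfide bond, read 0.686 to 1.06 in heroin rats and 0.896 to 1.12 in saline rats, a change of -0.16 (SE 0.13, exact permutation p = 0.169; -0.15 under quantile normalization). Scn4b, whose tail blocks the open pore and gives resurgent current, ran from 23.3 to 50.6 and from 20.4 to 54.4, with a change of -0.07 (SE 0.25), or -0.32 under quantile normalization.

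The pore subunits of calcium channels were the largest family, with 19 probes of 10 genes, of which 14 probes of 9 genes were tested. Their median change was 0.06, or -0.13 relative to all tested probes. Cacna1c, the L-type pore of most brain neurons and of the heart, read 4.05 to 5.13 (median 4.83) in heroin rats and 3.22, 2.93, 4.03, 4.81 and 3.35 in saline rats. Saline 5 lay among the heroin rats and the other 4 saline rats lay below all of them. The change of 0.40 (SE 0.14, 1.32-fold, limma p = 0.0135, exact permutation p = 0.0195, adjusted p = 0.263) was 0.19 under quantile normalization (limma p = 0.068), and without saline 5 it was 0.50 (limma p = 0.00144) and passed both thresholds.

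Cacna1h, a T-type pore that opens at low voltage, read 1.70 to 2.68 (median 2.03) in heroin rats and 1.72, 1.35, 1.91, 1.49 and 1.44 in saline rats. Saline 2 and saline 4 overlapped the heroin group, and heroin 3 was the highest. The change was 0.38 (SE 0.14, 1.30-fold, limma p = 0.0178, exact permutation p = 0.0173), and 0.28 under quantile normalization (limma p = 0.0458). For the T-type pore Cacna1g signals ran from 2.47 to 3.60 in heroin rats and from 2.64 to 3.35 in saline rats, and the 95% interval of its change of 0.06 was -0.22 to 0.34 (-0.13 under quantile normalization). For Cacna1i the probe A_44_P405083 had a change of -0.15 (SE 0.18; -0.12 under quantile normalization) and a lower heroin value in 4 of the 5 pairs of rats scanned together. The probe A_44_P405084, which holds the same 36 bases at its other end, was above background on 10 arrays and untested; it had a higher heroin value in all 5 pairs, and with no filter on dim probes its change was 0.32 (SE 0.14). Whether the change of one probe differed from that of the other was not tested.

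Cacna1b, the N-type pore of presynaptic terminals, read 75.8 to 93.2 (median 79.1) in heroin rats and 58.5, 62.0, 79.9, 77.7 and 61.1 in saline rats. Saline 4 and saline 5 lay in the heroin range and the other 3 well below it. The change was 0.29 (SE 0.13, limma p = 0.041, exact permutation p = 0.0346), and 0.03 under quantile normalization. Cacna1a, the P/Q-type pore that serves release at most central synapses, ran from 1.43 to 1.61 and from 1.18 to 1.79, with a change of -0.07 and a 95% interval of -0.34 to 0.21 (-0.16 under quantile normalization). Cacna1d, the L-type pore that opens at less depolarized voltages, had 3 tested probes with changes of 0.27, 0.13 and -0.11, which were 0.03, -0.09 and -0.08 under quantile normalization.

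The 4 tested probes of Cacna1e spread the most among the genes with several probes, from -0.21 to 0.25. The probe A_44_P545717, the one nearest to the start of the gene, read 1.56 to 2.09 (median 1.63) in heroin rats and 1.89, 2.11, 2.25, 1.49 and 2.09 in saline rats. Heroin 5 and saline 5 were on the side of the other group, and the remaining rats were separate. Its change of -0.21 (SE 0.14, exact permutation p = 0.104) was -0.33 under quantile normalization (limma p = 0.0427). The probes A_44_P236697 and A_44_P240646 had changes of 0.06 and -0.01, and the brightest, A_44_P297167, one of 0.25 (SE 0.18), and under quantile normalization these 3 were 0.14, -0.14 and 0.06. None of the 4 had an unadjusted p under 0.05 under 50th percentile scaling.

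**Figure D2:**
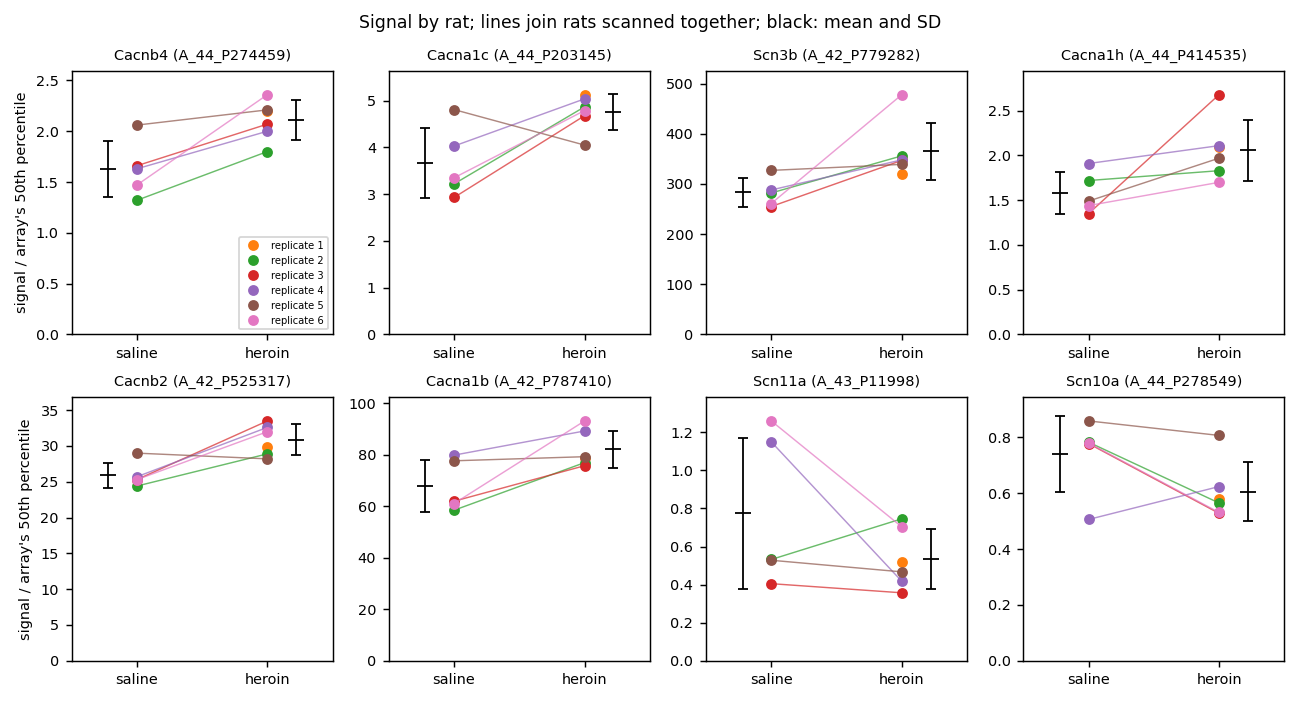
Relative signal (signal divided by the array's 50th percentile, vertical axis from 0) of each rat for 8 channel probes, with saline rats at the left and heroin rats at the right of each panel. Lines join rats scanned together, and the black marks are group means with SD (6 heroin, 5 saline). In the first 6 panels most lines rise, with saline 5 (brown) the highest or next highest saline rat in 5 of them; in the last 2 panels, Scn11a and Scn10a, most lines fall.

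The alpha2delta subunits, which carry the channel to the membrane and include the gabapentin receptors, were represented by 3 genes with 1 probe each. Cacna2d1, which is also a receptor for thrombospondin, read 163 to 313 (median 225) in heroin rats and 176, 174, 192, 218 and 170 in saline rats. Heroin 5 was the lowest of all rats and heroin 6 the highest, and the change was 0.29 (SE 0.15, exact permutation p = 0.0823; 0.06 under quantile normalization). Cacna2d3 ran from 7.63 to 15.9 and from 7.30 to 11.6, with a change of 0.32 (SE 0.18, exact permutation p = 0.126; 0.08 under quantile normalization). Cacna2d2 was above background in 1 of 6 heroin rats and in 5 of 5 saline rats and was not tested. It read 0.159 to 0.334 (median 0.238) in heroin rats and 0.482, 0.416, 0.309, 0.336 and 0.287 in saline rats. The differences in the 5 pairs were -0.67, -0.83, -0.96, -0.01 and -0.3, so replicate 5 was nearly level. The share of all probes that were lower in every pair was not counted. With no filter on dim probes the change of Cacna2d2 was -0.55 (SE 0.20, limma p = 0.0179, exact permutation p = 0.0238, adjusted p = 0.361). It then passed both thresholds, as did 3.81% of all probes.

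The beta subunits, which sit on the cytoplasmic side and free the pore from retention, were all tested, with 6 probes of 4 genes. Their median change was 0.23, and 0.00 under quantile normalization. Cacnb4, whose loss causes the lethargic phenotype in mice, had the smallest limma p of the channel probes under 50th percentile scaling, in its probe A_44_P274459. By the exact permutation test Scn3b (p = 0.00649) and Cacnb2 A_42_P525317 (p = 0.0108) were lower. That probe read 1.80 to 2.36 (median 2.14) in heroin rats and 1.32, 1.66, 1.63, 2.06 and 1.47 in saline rats. Saline 5 reached the heroin range, and the other saline rats were below it. The change was 0.38 (SE 0.13, 1.30-fold, limma p = 0.0122, exact permutation p = 0.013, adjusted p = 0.263) and 0.30 under quantile normalization (limma p = 0.0191). The brighter probe of Cacnb4, A_44_P732138, had a change of 0.05 (SE 0.16) and of -0.19 under quantile normalization.

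The probes of Cacnb2 also had unlike changes under 50th percentile scaling, but closer ones under quantile normalization. Whether the changes of the probes differed was not tested for Cacnb4 or Cacnb2. A_42_P525317 read 28.2 to 33.5 (median 30.9) in heroin rats and 24.4, 25.3, 25.7, 29.0 and 25.3 in saline rats, where only saline 5 reached the heroin range. Its change was 0.25 (SE 0.11, limma p = 0.0385, exact permutation p = 0.0108) and 0.00 under quantile normalization. A_44_P449819 had a change of -0.13 (SE 0.16), or -0.06 under quantile normalization. Cacnb1, the beta subunit of skeletal muscle that the brain also makes, ran from 55.5 to 65.8 in heroin rats and read 45.5, 39, 51.9, 70.8 and 45.9 in saline rats. Saline 5 was the highest of all rats and the other 4 saline rats were below every heroin rat, a change of 0.31 (SE 0.15, exact permutation p = 0.0541; 0.06 under quantile normalization). Cacnb3, the beta subunit most often found with N-type channels, ran from 194 to 256 and from 171 to 226, and its 95% interval of -0.05 to 0.47 lay within 1.4-fold either way (change 0.21, or -0.01 under quantile normalization).

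Of the 8 gamma genes, Cacng2, Cacng3, Cacng7 and Cacng8 were tested, and their changes ran from 0.17 to 0.25. Cacng2 (stargazin), Cacng3 and Cacng8 are transmembrane AMPA receptor regulatory proteins. Cacng2 ran from 5.49 to 11.1 in heroin rats and from 6.53 to 8.38 in saline rats (0.22, SE 0.16). Cacng3 ran from 4.29 to 11.3 and from 6.21 to 10 (0.17, SE 0.23), with heroin 6 far below the other 5 heroin rats. Cacng8 ran from 4.62 to 7.78 and from 4.17 to 6.66 (0.25, SE 0.16). None of the 3 had an unadjusted p under 0.05, and under quantile normalization their changes were -0.01, -0.06 and 0.03. The tested genes Cacng7 and Cacng8 lie with Cacng6 within 56 kb of chromosome 1, while Cacng1, Cacng4 and Cacng5, within 195 kb of chromosome 10, gave no tested probe.

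The HCN genes had 6 tested probes of 4 genes, with a median change of 0.10, or -0.05 under quantile normalization, and none had an unadjusted p under 0.05. Hcn2, a cyclic AMP-sensitive isoform of thalamus and cortex, ran from 53.8 to 72.1 and from 48.9 to 67.3 with its brighter probe, with a change of 0.10 (95% interval -0.17 to 0.37) or -0.15 under quantile normalization. Hcn3, which responds little to cyclic AMP, ran from 1.78 to 2.42 and from 1.59 to 2.21 with its probe A_43_P15414, with a change of 0.14 (95% interval -0.13 to 0.40) or 0.01 under quantile normalization.

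The other Hcn3 probe, A_44_P107352, showed the largest spread between rats. It read 0.858 to 3.91 in heroin rats and 0.465, 1.52, 3.21, 2.56 and 1.09 in saline rats. Both rats of replicate 4 were the highest of their group and both of replicate 2 the lowest, and the heroin rat was higher in all 5 pairs, by 0.88, 0.15, 0.28, 0.04 and 0.38. The change was 0.31 with an SE of 0.45 (exact permutation p = 0.6), and with the replicate number as a block it was 0.35 with an SE of 0.18 (limma p = 0.0658). Hcn4, the slow pacemaker isoform of heart and thalamus, ran from 0.487 to 1.20 and from 0.431 to 1.1 with 1 probe (0.10, SE 0.26; 0.17 under quantile normalization), and its other probe was above background on 0 arrays.

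For 17 of the 46 tested probes (37%, against 29% of all tested probes) the 95% interval of the change lay wholly within 1.4-fold up or down. They include both probes of Hcn2, Hcn3 A_43_P15414, Cacna1a, Cacna1g, Cacnb3, Scn2b and Scn8a. The intervals were counted under 50th percentile scaling only, and other scalings move the changes. For 0 of the 46 were the groups without overlap, where 1.78% of all tested probes were. The median standard error was 0.16, as over the whole array.

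The changes of the channel probes differed with the brightness of the probes, as did those of the array as a whole. The relative signal of a probe depends on its own sequence as well as on the RNA, so it does not rank the genes. Of the 10 channel probes with a mean signal under 1, 5 were lower in heroin rats, as were 54.2% of all tested probes of that range. The median change of the 10 was -0.04, where all tested probes of that range had -0.03. From 1 to 4 the 12 channel probes had a median of 0.02 (all probes 0.14), from 4 to 16 the 13 channel probes had 0.22 (all 0.23), and at 16 and over the 11 channel probes had 0.25 (all 0.24). From 1 to 4, 6 of the 12 channel probes were lower, where 25.3% of all tested probes of that range were. In the upper ranges 0 of the 13 (all 5.22%) and 1 of the 11 channel probes (all 2.65%), that of Scn4b, were lower. Under quantile normalization the 4 medians of the channel probes were 0.04, -0.09, -0.01 and -0.01, and those of all tested probes were 0.05, 0.03, 0 and 0. Brightness moved with the change in this way, and its part in the single differences was not tested.

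**Figure D3:**
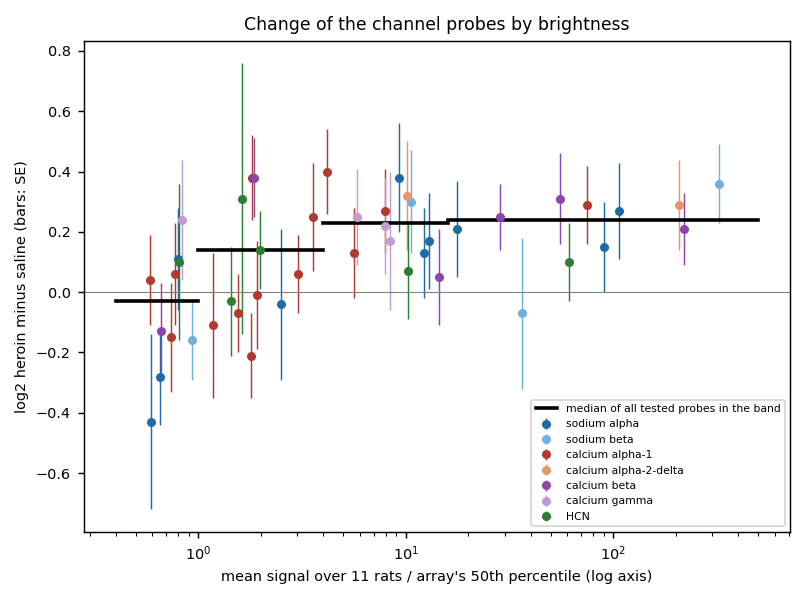
Change of the 46 tested channel probes (log2, heroin minus saline, bars SE) against their mean relative signal over the 11 rats on a log axis, coloured by family. The black bars are the medians of all tested probes in 4 ranges of signal, at -0.03, 0.14, 0.23 and 0.24, and the channel probes scatter around them, with Scn11a and Scn10a below at the left.

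**Figure D4:**
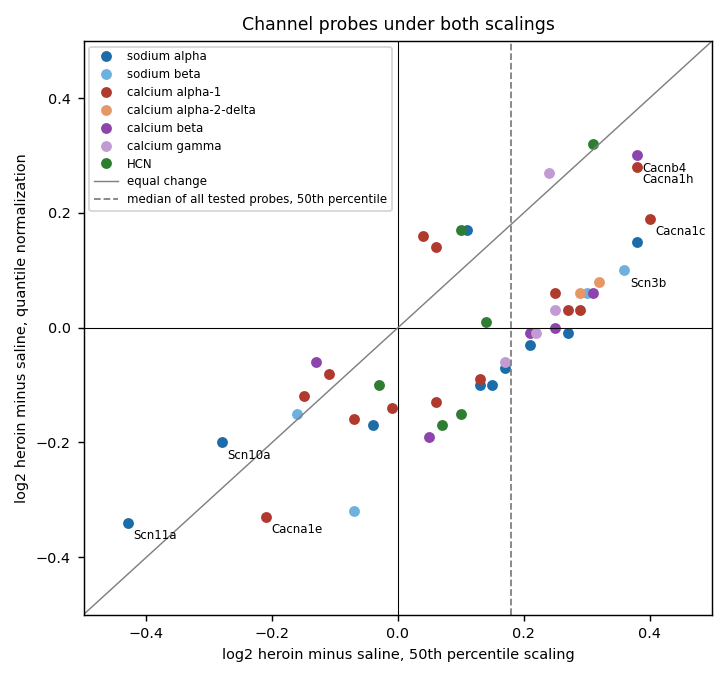
Change of the same 46 probes with each array divided by its 50th percentile (horizontal axis) and after quantile normalization (vertical axis), both log2, heroin minus saline. The brighter probes form a line below the diagonal. For all tested probes with a signal of 16 and over, the median change was 0.24 on the horizontal scale and 0 on the vertical one. The dashed line, at 0.18, is the median over all ranges of signal. Cacnb4, Cacna1h and Cacna1c are among the probes above 0 on both axes.

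The remaining 16 channel probes were not above background on every array. Scn4a and Cacna1s, sodium and calcium channels of skeletal muscle, with Scn4a's only probe and the Cacna1s probe A_44_P255177, were above background on 0 arrays, as were the Cacna1c probe A_44_P132903 and the Hcn4 probe A_44_P465011. The other Cacna1s probe, A_44_P472106, was above background on all 11 arrays and was tested, with a change of 0.04 (0.16 under quantile normalization). The glial and sensory sodium channel Scn7a was above background in 2 of 6 heroin and 4 of 5 saline rats. Cacna1f, the L-type channel of the retina, was above background in 1 heroin and 3 saline rats, and with no filter it had a change of -1.01 (SE 0.37, limma p = 0.0175, exact permutation p = 0.0455, adjusted p = 0.361). The gamma genes Cacng5 and Cacng6 were above background in 4 and 2 heroin rats and in 5 and 4 saline rats. Cacng5 was lower in the heroin rat of all 5 pairs (-0.54, SE 0.22), with a difference of only -0.01 in replicate 5. On the whole array 28185 to 33209 probes per heroin array and 30098 to 33835 per saline array were above background, and among the 62 channel probes 50 to 57 and 53 to 58.

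**Figure D5:**
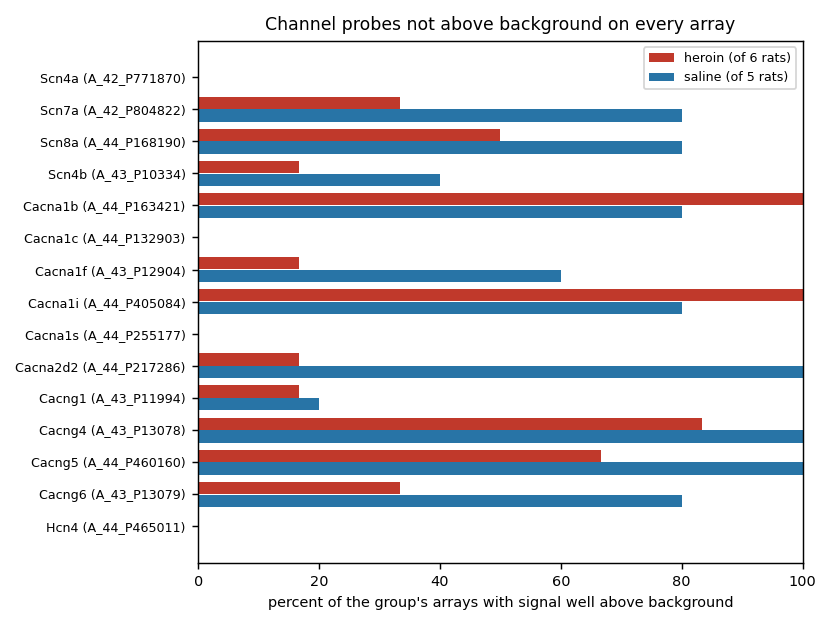
Share of the 6 heroin and the 5 saline arrays (percent) on which 15 of the 16 untested channel probes had signal well above background. Cacna2d2, detected in 1 of 6 heroin and 5 of 5 saline rats, shows the widest gap, and 4 probes have no bar because no array detected them.

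The median signals of the arrays before scaling ran from 42.7 to 78.3 in heroin rats, with heroin 6 the dimmest, and from 58.0 to 83.2 in saline rats, and heroin 6 had a median correlation of 0.968 with the others where those had 0.977 to 0.988 (across probes). All arrays were scanned on 1 day in 6 scans, of which 5 held 1 heroin and 1 saline rat of the same number. The heroin array was at position 4 and the saline array at position 3 by the headers each time, so position and group cannot be told apart. In these pairs the differences of Cacnb4 A_44_P274459 were 0.44, 0.32, 0.29, 0.10 and 0.68, those of Scn3b 0.34, 0.45, 0.27, 0.05 and 0.87, and those of Cacna1h 0.09, 0.99, 0.14, 0.41 and 0.25. Those of Cacna1c were 0.60, 0.67, 0.32, -0.25 and 0.51. So 3 of the 4 probes with an unadjusted p under 0.02 were higher in the heroin rat of every pair, as were 5 of the 46 tested probes in all (8.71% of all tested probes were). The 4 had been picked by their p in these same rats, so their direction in the pairs is no separate support. With the scan as a block the changes of the 4 were 0.37, 0.40, 0.37 and 0.37, with unadjusted limma p-values from 0.0381 to 0.0572, so none of the 4 stayed under 0.02.

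Other proteins of the channel complexes were read from a list of 37 genes, of which 33 were on the array with 51 probes, 43 of them tested. Of these 43, 1 probe passed both thresholds (2.72% of the whole array did), that of Fgf14 (A_44_P491864), an intracellular factor that binds the tail of sodium channels. It read 1.34, 1.28, 1.33, 1.1, 1.15 and 1.21 in heroin rats and 0.634, 0.656, 1.19, 1.24 and 0.810 in saline rats, a change of 0.50 (SE 0.18, adjusted p = 0.263), while the other Fgf14 probe had one of 0.20 (SE 0.12). At an unadjusted p under 0.05, 7 of the 43 were higher and 1 was lower, where 15.7% and 2.83% of all tested probes were. The lower one was Rem1, a small GTPase that inhibits calcium channels (-0.39, SE 0.17). All 3 probes of Rimbp2, which ties calcium channels to release sites, were among the higher ones, at 0.46, 0.37 and 0.49, which were 0.22, 0.11 and 0.29 under quantile normalization. With the scan as a block they were 0.43, 0.36 and 0.25, and the last had no usable value in heroin 3 and saline 6. The median of the list was 0.19, and 0.01 under quantile normalization.

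Markers of cortical neurons were present. Slc17a7 and Camk2a, of excitatory neurons, and all 6 interneuron genes were above background on every array. The summed excitatory level, a mean log2 relative signal over those 2 genes, ran from 2.55 to 3.76 in heroin rats and from 2.46 to 2.98 in saline rats, with a median change of 0.31 over 3 probes and 0.15 under quantile normalization, and its part in the channel changes was not tested. Among the marker lists of oligodendrocytes, astrocytes, microglia, endothelium, blood, striatum, skeletal muscle, heart and sensory neurons, 0 probes passed both thresholds. These lists had only 2 to 8 tested probes each, and 2.72% of all tested probes passed both. Of the 8 tested interneuron probes 1 did, that of Vip, higher in heroin rats by 0.49, or 0.25 under quantile normalization. The summed striatal level, a mean log2 signal over the 5 genes on the array, ran from 0.19 to 0.73 in heroin rats and from 0.31 to 1.23 in saline rats, with saline 5 above all other rats in Rgs9 (13.3, the others 3.03 to 5.48) and in both probes of Adora2a (2.31 and 5.92, the others up to 0.869 and 3.00). In Drd1a (0.825) and Ppp1r1b (2.05) saline 5 lay among the other rats. Without saline 5, the rat nearest to the heroin group in Cacna1c, Cacnb1, Cacnb2, Cacnb4 and Scn3b, 13 channel probes had an unadjusted p under 0.05 (28.3%, against 34.4% of all tested probes) and 2 passed both thresholds (4.35%, against 9.21%), those of Cacna1c and Scn2a1 (A_44_P121187). Without that rat 2352 probes of the array passed both, in place of 694, and the part of striatal tissue in this was not tested.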

How the data were processed

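RNA of the medial prefrontal cortex was measured on 11 single-colour Agilent arrays, 1 per rat (6 heroin, 5 saline), while the methods give 12. The deposited spot intensities had been background-corrected by Feature Extraction, version 9.5.1.1 in the headers, and were not scaled from array to array. A second deposited table gives each probe and rat a ratio, which the authors made in GeneSpring by the same floor and 50th percentile followed by division by the gene's median. Its scale and direction were checked: after centring each probe, 99.91% of its log2 values were within 0.02 of those computed here, and its column medians ran from 0.854 to 1.09. It was used as an alternative only.

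From the intensities, spots marked as non-uniform or as population outliers (99 to 231 per array) were dropped, a floor of 5 was set, log2 was taken, the spots of a probe were averaged, and the 50th percentile of each array's non-control probes was subtracted. A probe was above background on an array where at least 0.5 of its spots were scored so. The 25587 probes above background on all 11 arrays were kept, less 32 without 2 usable arrays in each group. The group difference was fitted by lmFit and eBayes of limma 3.58.1 (R 4.3.3) and tested two-sided, and p-values were adjusted by Benjamini-Hochberg over 25555 probes. Standard errors and 95% intervals are limma's, and p-values are unadjusted unless called adjusted. Exact permutation tests covered the 462 divisions of the rats, with 0.00216 the smallest p they can give, or 126 divisions and 0.00794 for the Scn2a1 probe with 9 usable arrays. The fit was tested on simulated data. No probe of the channel genes was saturated.

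The members and lists were chosen with earlier results of these data known. The genes described are 30 brain channel genes of a list, the probes with p under 0.02, and the 3 largest rises and falls, each gene by its brightest tested probe. Results of 3 channel genes are not reported here, though the counts, medians and ranges over the families hold them. Other probes are named where a gene's probes disagree or where detection differed between the groups, and these were picked after their values were seen. All 62 probes matched a RefSeq symbol of assembly GRCr8 by accession or name. Positions are those of the array annotation (rn3); exons and untranslated regions were not analysed here. The number of arrays limits the precision. The alternatives covered other scalings, the normexp correction, the ratios of the value table, the marked spots, the filter on dim probes, a block for the replicate number (which equals the scan), weighting of arrays, a plain test as in the methods, a trended or robust variance prior, gene means over probes and the omission of each rat.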

Additional observations from a re-analysis of the deposited data

Results flagged for a closer look

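Each group was screened for the channel probes described and for the per-rat median of the channel probes relative to all tested probes. Of these 66 sets of values, 8 held a rat far from the others of its group (12.1%), 3 of them from heroin 6. Chance alone gives about 5% for normal values, but the sets come from the same 11 rats and are not independent. In heroin 6, Cacnb4 (A_44_P732138) read 10.1 with the nearest heroin rat at 14.0, Cacng3 read 4.29 (nearest 8.39) and Scn3b read 478 (nearest 356). In heroin 5, Cacna1e (A_44_P545717) read 2.09 (nearest 1.65), and in heroin 4 Cacna1i read 0.523 (nearest 0.699). In saline rats, Cacna1a read 1.18 in saline 5 (nearest 1.65), Scn10a 0.506 in saline 4 (nearest 0.778) and Scn1a 8.0 in saline 2 (nearest 12.6).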

How the results depend on the processing

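The 0 channel probes past both thresholds became 1 of 46 (Scn10a, lower; 3.05% of all tested probes) with scaling to the 75th percentile, 2 of 62 with no filter on dim probes (Cacna1f and Cacna2d2, lower; all 3.81%), 1 of 51 when detection in 1 group sufficed (Cacna2d2; all 3.77%), and 2 of 46 with array weights (Cacna1c and Scn2a1, higher; all 9.31%). Cacna2d2 passed the filter on 1 group only through the saline rats, where it is higher, so its call there is no support. The weights put 7862 probes of the array at an adjusted p under 0.05. The 6 probes with a p under 0.05 (13%, all tested probes 18.5%) became 3 with the 75th percentile (6.52%, all 9.55%), 3 with the 50th percentile of detected probes (all 9.08%; the 3 were lower in both), 3 with quantile normalization (all 7.71%), 23 with array weights (50%, all 47.6%) and 2 with the replicate block (4.35%, all 10.6%). With the 75th percentile and with the detected probes, the 3 were those of Scn10a, Scn2b and Cacna1e (A_44_P545717). The median change relative to all tested probes, -0.039, became 0.022 without the filter and 0.034 with array weights. Without each rat in turn the 3 values ran from 0 to 2, from 4 to 13 and from -0.064 to 0.017. The p under 0.05 counts were 11 without heroin 5 (all 22.1%), 10 without heroin 6 (all 21.6%) and 13 without saline 5 (all 34.4%), the last alone gave 2 past both, and 0.017 came without heroin 6. The cause of these moves was not tested, beyond the probes that the 2 filters add. All other alternatives gave like counts.

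Single genes turned sign almost only with the scaling, which moves the median of all tested probes from 0.18 to -0.03 (75th percentile), -0.01 (50th percentile of detected probes) or 0.01 (quantile). With the 75th percentile Hcn2 was at -0.12, Hcn3 -0.08, Hcn4 -0.12, Cacna1g -0.16, Cacnb3 -0.01, Cacnb4 -0.17, Cacng2 0.00, Cacng3 -0.05, Scn1a -0.05, Scn3a -0.01 and Scn8a -0.08. With the detected probes Hcn2 was at -0.09, Hcn3 -0.05, Hcn4 -0.09, Cacna1g -0.13, Cacnb4 -0.14, Cacng3 -0.02, Scn1a -0.03 and Scn8a -0.06. With quantile normalization Hcn2 was at -0.15, Cacna1g -0.13, Cacnb3 -0.01, Cacnb4 -0.19, Cacng2 -0.01, Cacng3 -0.06, Scn1a -0.07, Scn2a1 -0.01, Scn3a -0.03 and Scn8a -0.10. Without a rat, Scn4b was at 0.02 (without heroin 2), 0.06 (heroin 4), 0.05 (saline 3) and 0.07 (saline 5), Hcn4 at -0.01 (heroin 4) and -0.12 (saline 3), and Cacnb4 at -0.02 (saline 2); without each rat in turn these 3 ran from -0.28 to 0.07, from -0.12 to 0.26 and from -0.02 to 0.16. These are the brightest probes; the lower-p probe of Cacnb4, and Cacna1c, Cacna1h and Scn3b, stayed above 0 under every alternative run, at 0.16 to 0.47, 0.18 to 0.55, 0.16 to 0.45 and 0.10 to 0.41. Their p stayed under 0.02 in 13 of 23, 11 of 24, 10 of 24 and 10 of 23 alternatives.

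Arrays with the same replicate number share a scan, and the scan stood in for the slide, so both blocks are 1 fit, in which heroin 1, scanned alone, adds nothing to the group difference. Deviations of same-numbered rats correlated at 0.38, -0.13, 0.35, 0.02 and -0.24, and the main fit did not take the numbers as pairs. These correlations do not settle the matter for single probes. With the block the SE of Hcn3 A_44_P107352 went from 0.45 to 0.18. With the block 805 probes of the array passed both thresholds, 0 of them channel probes, and the median relative change was -0.054. The methods' t-test gave 0 channel probes past both and 308 on the array.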
